A study of Cricetulus griseus with 5 samples.

Results

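The genes described here encode the proteins of the cytosolic ribosome, measured on microarrays that hybridised RNA of 1 cell line against itself. They were chosen by name: a probe belonged to the set when the array platform's annotation gave it a single symbol of the Rpl or Rps series, or Rplp0, Rplp1, Rplp2, Rpsa or Rps4x. This found 74 of 20868 probes, which measured 69 of 16504 named genes, 44 of the large subunit (Rpl) and 25 of the small subunit (Rps). Of 77 standard subunits listed by role, 65 were measured, as were 4 of 7 listed paralogues. The others were not analysed here.

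Cytosolic ribosomes translate nearly all cellular messenger RNA. The small subunit reads the codons, and the large subunit forms the peptide bonds and holds the tunnel through which the new chain leaves. Each protein is present in about equal amounts in the particle, and in mammals the messenger RNAs of these proteins begin with a terminal oligopyrimidine (TOP) tract through which mTOR signalling sets their translation together. They are short and among the most abundant messages of a growing fibroblast.

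A23 is a Chinese hamster fibroblast line that lacks thymidine kinase, which makes it a recipient for radiation hybrids. Per the labels, the cells were grown in medium with 10% serum and harvested by trypsin treatment, and total RNA was labelled with Cy5 in channel 1 and with Cy3 in channel 2 of each of 5 arrays, all in the same dye orientation. The series' stated purpose is a control for the power to detect cis ceQTLs, loci whose copy number acts on a gene at the same place in radiation hybrids. All arrays form 1 group with no treatment and no second genotype, and the labels do not say whether they came from separate cultures or extracts, so the spread between them may be technical. The probes carry mouse gene names while the RNA was hamster, and 63 of the 69 symbols also name a gene in the hamster annotation. The symbols that do not are Rpl36, Rpl36a, Rpl39l, Rpl41, Rps19 and Rps29. Ribosomal protein genes have many processed pseudogenes and near-identical copies, and how the probes treat these copies was not tested.

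The values are log ratios of the channels as deposited. They were read as log10, which is not stated by the sources used here, and the channel in the numerator is not stated either, so only the sign of a ratio is given and no dye. With the same RNA in both channels, the design implies a ratio of 0 only if both dyes act alike on a gene. All arrays share the same dye orientation, so a gene's mean ratio cannot be told apart from a dye effect. A ratio holds no level, so neither the abundance of these messages nor the identity of the cells could be checked: of 7 fibroblast, 5 epithelial and 2 macrophage markers measured, 1 passed the test below, the desmosome gene Dsp at -0.51 ± 0.0692 (SD, n = 5 arrays; limma adjusted p = 0.00933). Pearson correlations between arrays over all probes were 0.268 to 0.424. Replicate 2 was the widest array (SD of all probes 0.174 against 0.119 to 0.127), and replicate 5 had the most exact zeros (20.8% of probes against 6.43% to 12.4%). Replicate 4 gave most of the ribosomal protein genes their highest value, and values without it are given beside some of the results. Means of single genes given without such a value may lean on it too.

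Ribosomal protein genes had small positive ratios, and most of them moved from array to array in the same way. The mean over 5 arrays was positive for 59 of the 69 genes and negative for 10, where 52.2% of all genes had a mean above 0 and 46.2% a mean below 0. The median of the gene means was 0.0421, a fold of 1.10 under the log10 reading and of 1.03 under a log2 reading, against 0.00311 over all genes tested. Without replicate 4 the members' median was 0.031, with 58 means positive and 10 negative. On replicates 1, 2, 3, 4 and 5 the median over the 69 genes was 0.0398, 0.0351, 0.0391, 0.0851 and 0.0248, while the median of all genes was 0 on each array. Every array thus had a positive median for the ribosomal proteins, and replicate 4 lay above the others. Of the 69 genes, 39 had a positive ratio on all 5 arrays, against 13.8% of all genes, and 3 had a negative ratio on all 5, against 13.2%. Together these 42 genes with 1 sign compare with 27.0% of all genes. A gene measured by 1 probe cannot count here if that probe was exactly 0 on any array. A probe at exactly 0 was found in 25.3% of all genes and in 2 of the 69 members, which lowers the shares of all genes.

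**Figure D1:**
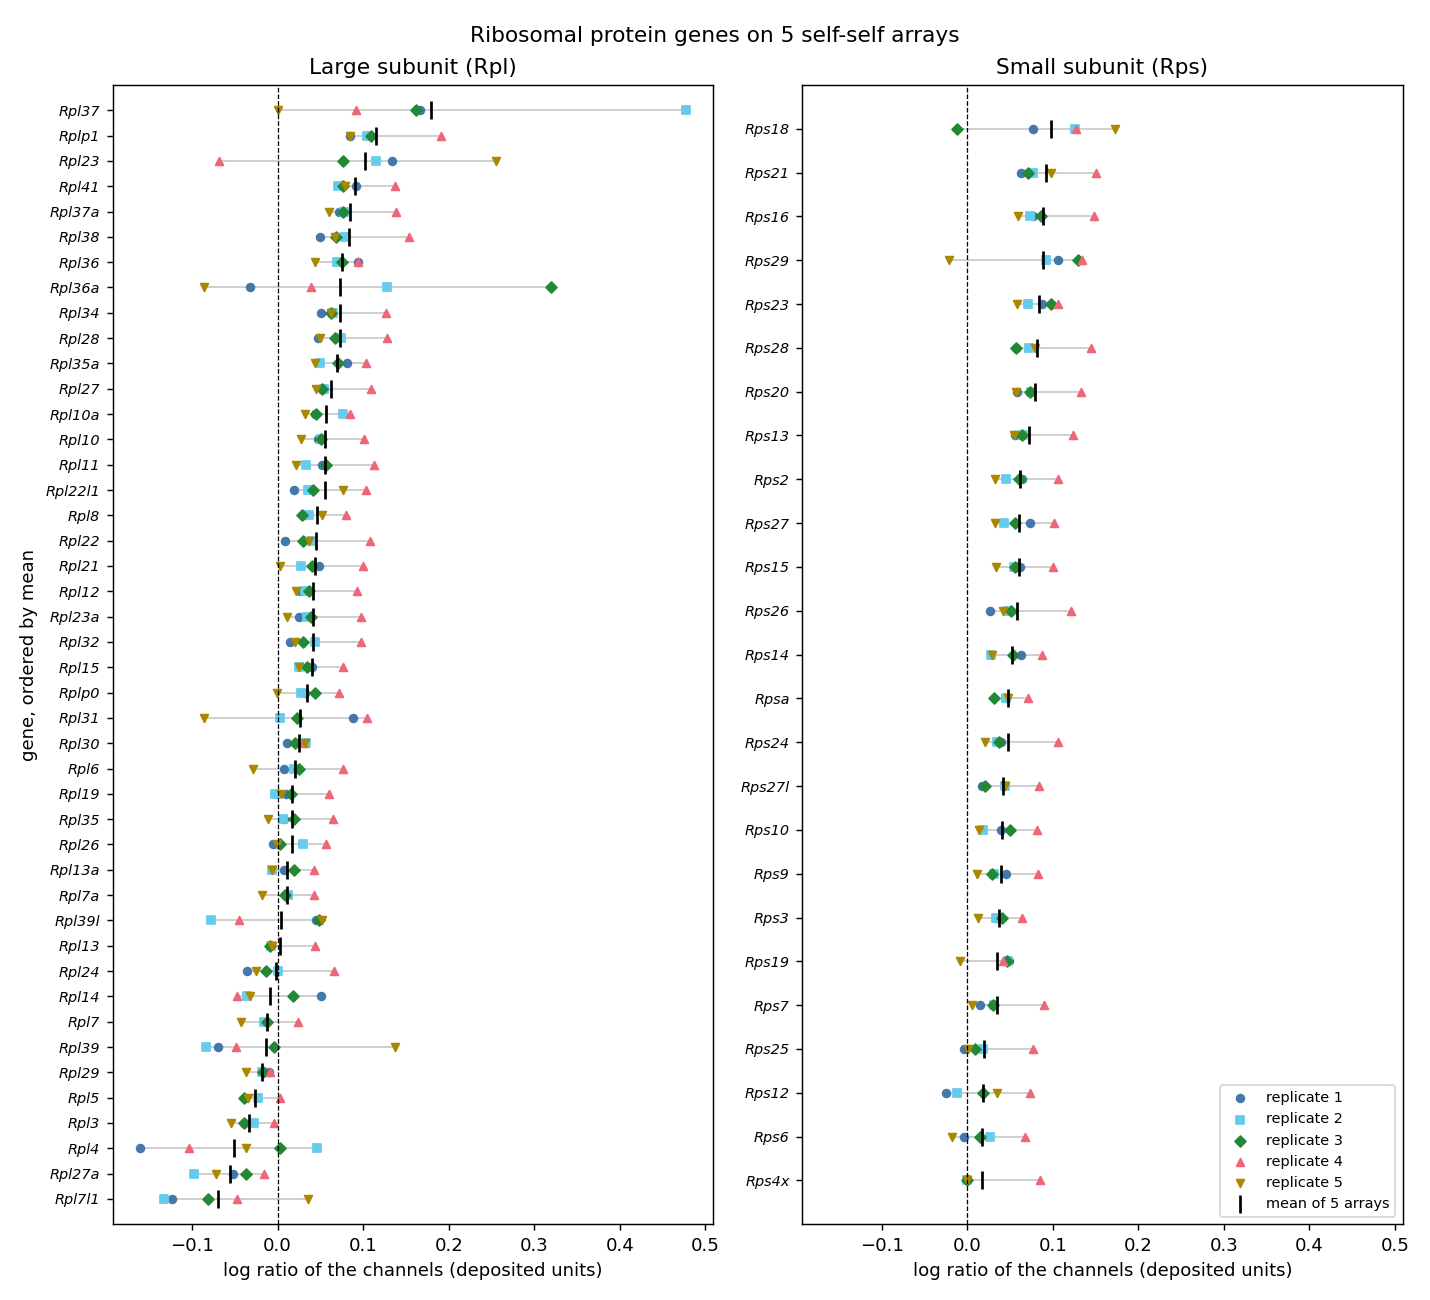
Log ratio (x axis, deposited units) of each ribosomal protein gene (y axis, ordered by mean) on the 5 arrays, with large subunit genes on the left and small subunit genes on the right. Points are single arrays, black ticks are means, and grey lines run from the lowest to the highest array. In most rows replicate 4 is the point farthest to the right, and all 25 Rps means lie above 0.

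Single genes seldom passed the test. In limma's moderated test against 0, with Benjamini-Hochberg adjustment over all 16504 genes and a threshold of 0.05, 3 of the 69 genes passed, all positive. The share of all genes that passed was 2.45% in either direction, with 1.05% of all genes passing with a positive ratio and 1.4% with a negative one. A further 8 members had an adjusted p between 0.05 and 0.06. The share of all genes in that band was not taken, so this count has no comparison. At an unadjusted p of 0.05 the count was 45 of 69 against 27.7% of all genes, with 42 positive against 14.2% and 3 negative against 13.5%. At the level of probes 5 of 74 passed, all positive, against 3.42% of all probes. The 3 genes lost the call when any 1 array was left out (0 of 69 passing each time in limma, 33 to 43 at an unadjusted p of 0.05). Most calls outside the set were lost too, since 0.0182% to 0.388% of all genes then passed, against 2.45% with all arrays.

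Rps23, a protein of the decoding site where codons are read, had ratios of 0.0874, 0.0708, 0.0975, 0.107 and 0.0578 on replicates 1 to 5. Its mean was 0.084 ± 0.0198 (SD, n = 5), or 1.21-fold under the log10 reading. It had the lowest adjusted p of the 69 genes (limma, 0.0375), and all of its arrays were positive. Rpl41, a very short peptide that sits between the subunits, gave 0.092, 0.0702, 0.0763, 0.137 and 0.0791, with a mean of 0.0909 ± 0.0269 (limma adjusted p = 0.0464). Rpl36, another protein of the large subunit, gave 0.0938, 0.0697, 0.0754, 0.0945 and 0.0438, with a mean of 0.0755 ± 0.0208 (limma adjusted p = 0.0465). Both were positive on every array, and replicate 4 was the highest for each of the 3 genes. Rpl41 and Rpl36 are among the symbols that name no gene in the hamster annotation.

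The negative means all belonged to the large subunit. All 25 Rps means were positive, from 0.017 for Rps4x to 0.0982 for Rps18, while the 44 Rpl means ran from -0.0697 to 0.179. Without replicate 4, 24 Rps means were positive and that of Rps4x was 0. The positive mean of Rps12 averages probes that disagreed, with means of 0.0866 and -0.0505. The ratio was positive on all 5 arrays for 18 of 25 Rps and 21 of 44 Rpl genes. The Rps median was 0.0522 and the Rpl median 0.0407, and without replicate 4 they were 0.0422 and 0.0273. By array the Rps median exceeded the Rpl median by 0.023, 0.0121, 0.0181, 0.0234 and 0.0119, so the order was the same on each array while the gap varied between arrays. This split was not tested, since the genes are not replicates.

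Within the small subunit, the 11 genes of the head and the 13 of the body and platform had like values. The head carries the sites where transfer RNAs move, and the body and platform hold the decoding site and the messenger RNA exit. Their medians were 0.061 and 0.0522 (0.0511 and 0.0422 without replicate 4), and 6 of 11 and 11 of 13 genes were positive on all arrays. Rps18, a head protein that touches the large subunit, had the highest Rps mean but with a wide spread, 0.0771, 0.126, -0.012, 0.127 and 0.173, mean 0.0982 ± 0.0704, and replicate 3 was below 0. Rps21 on the body gave 0.0624, 0.0772, 0.0711, 0.151 and 0.0978, all positive (limma adjusted p = 0.0522). Rpsa, a body protein also known as a laminin receptor, had 0.0451, 0.0448, 0.0311, 0.0706 and 0.0478, mean 0.0479 ± 0.0143, and was among the 4 steadiest of the 69 genes. Rps6, the substrate of the S6 kinases, had -0.00381, 0.0271, 0.0153, 0.0676 and -0.0183, with 2 arrays below 0, and its mean of 0.0176 ± 0.0329 did not pass (limma adjusted p = 0.464) and was 0.00506 without replicate 4. Rps19, the gene most often mutated in Diamond-Blackfan anaemia, gave 0.0485, 0.0476, 0.0471, 0.0422 and -0.00887, so that 4 arrays lay close together and replicate 5 was apart below 0.

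Rps4x, the X-linked form of a body protein, was listed at exactly 0 on replicates 1, 2, 3 and 5 and at 0.0851 on replicate 4. Its mean of 0.017 therefore rests on 1 array, and whether an exact 0 is a measured value is not stated. Rpl37 was the other gene with an exact 0, on replicate 5. These were 2 of 69 genes with an exact 0 on any array, against 25.3% of all genes.

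In the large subunit, the stalk recruits elongation factors to the ribosome, and 2 of its 3 proteins were measured. Rplp1, an acidic stalk protein, had 0.0852, 0.104, 0.11, 0.191 and 0.0848, mean 0.115 ± 0.0441, the second highest of the 69 (limma adjusted p = 0.0504, just outside the threshold). Rplp0, the scaffold that anchors the stalk, had 0.0321, 0.0273, 0.0436, 0.0715 and -0.000857, mean 0.0347 ± 0.0263, with replicate 5 just below 0. The arrays of Rplp1 lay above those of Rplp0 without overlap on every replicate, but Rplp0 is the average of probes that disagreed.

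Rpl5 and Rpl11 bind the 5S ribosomal RNA together and, when not in ribosomes, bind the p53 regulator Mdm2. Here they had opposite signs. Rpl5 gave -0.0386, -0.0224, -0.0391, 0.00335 and -0.0343, mean -0.0262 ± 0.0179. Rpl11 gave 0.0524, 0.0334, 0.0561, 0.113 and 0.0212, mean 0.0552 ± 0.0353. The ranges of the pair did not overlap, and for both the highest array was replicate 4. Neither passed (limma adjusted p = 0.165 and 0.108).

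Both measured proteins of the exit tunnel's wall had negative means. Rpl4, whose loop lines the tunnel, had -0.161, 0.0457, 0.00337, -0.104 and -0.0365, mean -0.0505 ± 0.0828, with arrays of both signs and a mean of -0.0228 without replicate 1. Rpl39, a short protein of the tunnel wall, had -0.0697, -0.0835, -0.00421, -0.0483 and 0.138, mean -0.0136 ± 0.0897, and its sign rested on single arrays: without replicate 1 or replicate 2 the mean was above 0, with a range over left-out arrays of -0.0514 to 0.00385. The 5 proteins around the tunnel's exit, Rpl19, Rpl23a, Rpl26, Rpl31 and Rpl35, had means of 0.0167 to 0.0415, and only Rpl23a among them was positive on all arrays. Their median of 0.0173 lay below that of the other 30 large subunit proteins, at 0.0441. Without replicate 4, the highest array for all 5, these medians were 0.00681 and 0.0303.

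The negative members besides Rpl4, Rpl5 and Rpl39 were Rpl3, Rpl7, Rpl14, Rpl24, Rpl27a, Rpl29 and the paralogue Rpl7l1. Rpl3, which reaches towards the peptidyl transferase centre, had -0.0393, -0.0278, -0.0396, -0.00403 and -0.0543, mean -0.033 ± 0.0187. Rpl27a had -0.052, -0.0978, -0.0366, -0.0165 and -0.0726, mean -0.0551 ± 0.0315, the most negative of the standard subunits (limma adjusted p = 0.0951). Rpl29 had -0.0103, -0.0183, -0.0167, -0.00925 and -0.0375, mean -0.0184 ± 0.0114. These 3 genes were negative on every array and were the only members of which that held, but none passed the test. Rpl7 had -0.0123, -0.0164, -0.0126, 0.0236 and -0.0433. Rpl24 had -0.0354, 0.000753, -0.0136, 0.0664 and -0.0256. Both were positive on replicate 4 and, but for replicate 2 of Rpl24, negative on the other arrays. Rpl14 had 0.0511, -0.0357, 0.0181, -0.0472 and -0.0322, with arrays of both signs and a mean of -0.00917 ± 0.042 that was 0.000327 without replicate 4. The Rpl24 mean of -0.00146 ± 0.0403 ran from -0.0184 to 0.00702 when single arrays were left out.

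Of the genes with the highest means, several rested on a few arrays. Rpl37, a zinc-binding protein, had the highest mean of all 69, 0.179 ± 0.18, from 0.166, 0.477, 0.162, 0.0916 and 0. Replicate 2 stood far above the other arrays, and the mean without it was 0.105. Rpl23 had 0.134, 0.115, 0.0761, -0.0684 and 0.255, mean 0.102 ± 0.116, with replicate 4 the only array below 0 and a mean of 0.0642 without replicate 5. Rpl36a had -0.0327, 0.128, 0.32, 0.0394 and -0.0866, mean 0.0735 ± 0.159, which was 0.0119 without replicate 3. With Rpl39 these were the 4 widest members, with arrays of both signs in Rpl23, Rpl36a and Rpl39 and none of the 4 past the threshold (limma adjusted p from 0.187 for Rpl37 to 0.824 for Rpl39). At the other end, Rpl30 had the smallest spread, 0.0111, 0.0337, 0.0205, 0.0308 and 0.0317, mean 0.0256 ± 0.00956, though this mean also averaged disagreeing probes, and Rpl29, Rpsa and Rpl5 followed.

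Some paralogues of ribosomal proteins are expressed in certain tissues in place of or beside the common form, which need not hold for each one here. Of the listed paralogues, 4 could be set beside their parents on the same arrays. Rpl7l1 had -0.123, -0.133, -0.081, -0.0469 and 0.0361, mean -0.0697 ± 0.0685, the most negative member, and lay below Rpl7 on 4 of 5 arrays. Rpl22l1 had 0.0189, 0.0361, 0.0418, 0.103 and 0.0762, mean 0.0552 ± 0.0339. Its parent Rpl22 had 0.00915, 0.04, 0.0295, 0.108 and 0.0364, mean 0.0445 ± 0.0372 (0.0288 without replicate 4). Both forms were positive on every array, and their order changed between arrays. Rpl39l, in mammals a testis form, had 0.0452, -0.0778, 0.0479, -0.0454 and 0.0522, mean 0.00441 ± 0.0614, lay above Rpl39 on 4 of 5 arrays and had a mean of either sign when single arrays were left out (-0.00753 to 0.025). Rps27l, which p53 induces, had 0.0175, 0.0443, 0.0203, 0.084 and 0.0446, mean 0.0421 ± 0.0267, against 0.0729, 0.043, 0.0553, 0.101 and 0.0328, mean 0.061 ± 0.027, for Rps27. The mean difference, paralogue minus parent, was -0.0575 ± 0.0797 (SD, n = 5) for Rpl7l1, 0.0107 ± 0.018 for Rpl22l1, 0.018 ± 0.0735 for Rpl39l and -0.0189 ± 0.0271 for Rps27l. Each was smaller than its spread between arrays, and with 5 arrays an exact sign-flip permutation test could not go below a two-sided p of 0.0625.

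The array to array pattern was shared across most members. Replicate 4 gave the highest ratio for 58 of the 69 genes, against 19.3% of all genes, and lay above the mean of the other arrays for 62, against 45.7%. This held for all 25 Rps and 37 of 44 Rpl genes. The median excess of replicate 4 over the mean of the other arrays was 0.0529 for the members and -0.00388 for all genes. Replicate 5 gave the lowest ratio for 37 members, where 24.5% of all genes were lowest there. The excess was seen in genes with negative ratios too, since 6 of the 10 negative members had their highest value on replicate 4. What set replicate 4 apart was not tested, and the table holds no signal intensity, slide or scan date for it.

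**Figure D2:**
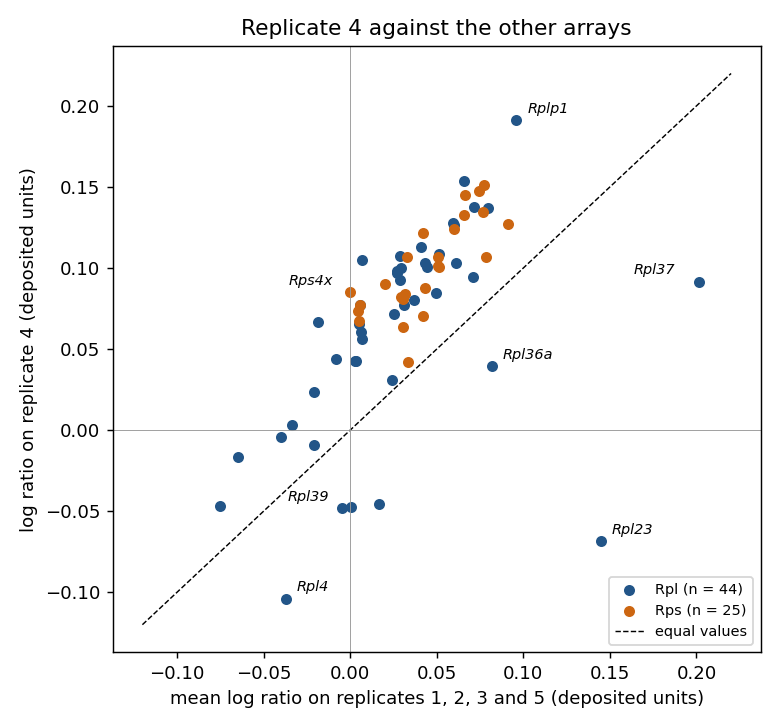
Log ratio on replicate 4 (y axis) against the mean log ratio on the other 4 arrays (x axis) for each of the 69 genes, in deposited units, with Rpl in blue and Rps in orange. The dashed line marks equal values. Of the 69 points, 62 lie above the line, most at a similar distance, and Rpl23, Rpl37, Rpl4 and Rpl36a are among the 7 below it.

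Replicate 4 also made up much of the spread of these genes. The median between-array SD was 0.0304 over the 69 genes, 0.0304 for Rpl and 0.0311 for Rps, against 0.0563 over all genes. Without replicate 4 it was 0.0138 for the members and 0.0541 for all genes. Subtracting each array's own median over the members brought it to 0.0144 with all 5 arrays kept. Rps13 gave 0.0557, 0.0651, 0.0639, 0.124 and 0.0553, with an SD of 0.029 over all arrays and 0.00523 without replicate 4. Rpl13 gave -0.0089, -0.00777, -0.00908, 0.0441 and -0.00617, a positive mean from 1 array with the other 4 between -0.00908 and -0.00617. Both were named after their values were seen. Of 59 members with an SD up to 0.05, 56 were highest on replicate 4, and of the 10 with a larger SD, 2 were.

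The order of the members among themselves repeated between arrays. Spearman correlations across the 69 genes were 0.517 to 0.806 over the 10 pairs of arrays, beside 0.258 to 0.436 across all 16504 genes. These are descriptions across genes, which are not independent, and all arrays share the same dye orientation and cell line. Rplp1 and Rps21, for example, lay above Rpl3 and Rpl27a on every array.

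The ratio also went with the number in the gene name, a pattern chosen after the values were seen. The numbers were given to the proteins in the order of their migration in gels, so that low numbers mark larger proteins in broad terms. Across 39 standard Rpl genes with a number the Spearman correlation of number and mean ratio was 0.498, and across 23 Rps genes 0.49. It was positive on each array, from 0.366 to 0.499 for Rpl and from 0.284 to 0.51 for Rps, and 0.54 for Rpl without the 4 widest genes. Genes from Rpl3 to Rpl8 had a median of -0.0122 with 4 of 7 negative, those numbered 10 to 19 a median of 0.0402 with 1 of 9 negative, those numbered 20 to 29 0.0425 with 3 of 10 negative, and those from 30 upwards 0.0734 with 1 of 13 negative. For Rps the medians were 0.0357 below number 10, 0.0566 from 10 to 19 and 0.0789 from 20 to 29, with no negative mean. No transcript or protein length was used, and no sequence is given for these genes.

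**Figure D3:**
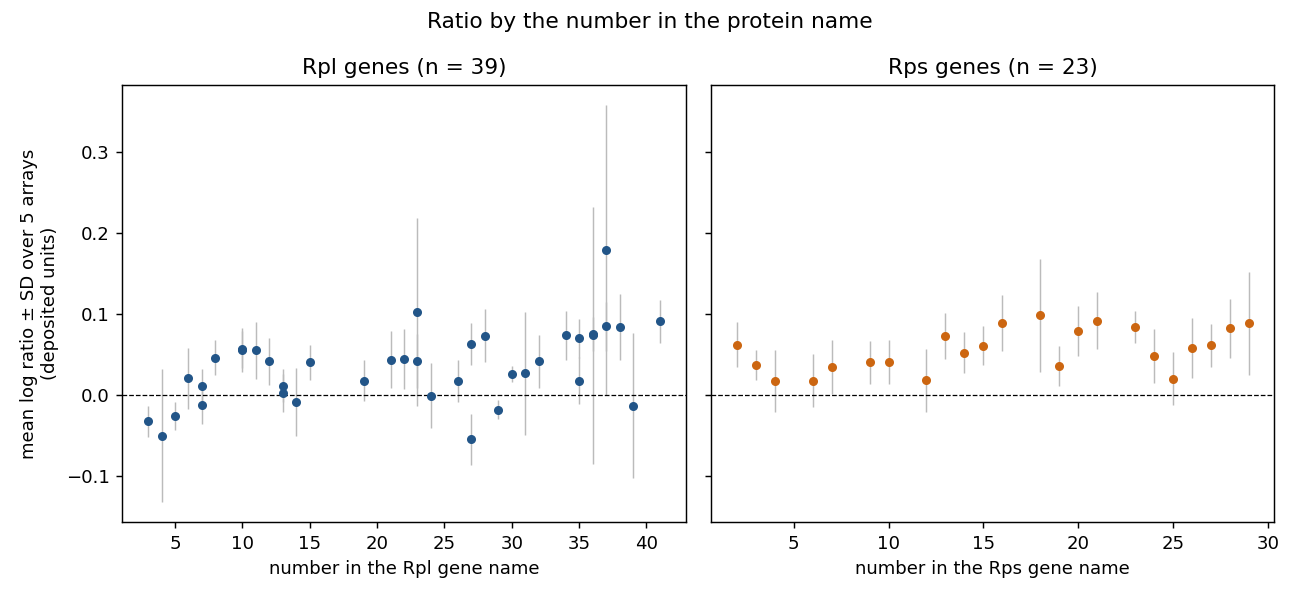
Mean log ratio over 5 arrays (y axis, deposited units, bars are SD) against the number in the gene name (x axis) for 39 Rpl genes on the left and 23 Rps genes on the right. Low-numbered Rpl genes scatter around and below 0, and higher numbers lie mostly above it, with Rpl27a, Rpl29 and Rpl39 as low points among them.

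Genes with 2 probes showed how far a gene's ratio depended on the probe. For Rplp0, feature 20484 gave 0.0782, 0.0628, 0.0875, 0.12 and 0.0376, mean 0.0771 ± 0.0303, and feature 8279 gave -0.0139, -0.00829, -0.000288, 0.0234 and -0.0393, mean -0.00769 ± 0.0227. The probes did not overlap within any array, yet both were highest on replicate 4 and lowest on replicate 5. For Rps12, feature 9999 gave 0.0711, 0.0917, 0.0665, 0.153 and 0.0508, mean 0.0866 ± 0.0399, and feature 16952 gave -0.121, -0.116, -0.0296, -0.00661 and 0.0198, mean -0.0505 ± 0.0642. For Rpl30, feature 16223 gave 0.0474, 0.053, 0.0572, 0.112 and 0.0277, mean 0.0595 ± 0.0314, and feature 1351 gave -0.0252, 0.0143, -0.0162, -0.0503 and 0.0358, mean -0.00834 ± 0.0338. In these 3 genes 1 probe was positive on all arrays and the other had a negative mean, so the gene's value is an average of unlike probes. For Rps18, feature 2747 gave 0.0337, 0.048, 0.0416, 0.092 and 0.044, mean 0.0519 ± 0.0231, while feature 10557 gave 0.121, 0.203, -0.0657, 0.162 and 0.303, mean 0.144 ± 0.136, and the wide gene mean came from the latter. For Rpl27a, feature 17077 gave -0.085, -0.0601, -0.0439, -0.0488 and -0.0384 and feature 4594 gave -0.0191, -0.135, -0.0293, 0.0159 and -0.107, and both means were -0.055 in round terms (-0.0552 ± 0.0185 and -0.0549 ± 0.0635). The small spread of the Rpl30 average, 0.00956, was below that of either probe. None of these 10 probes passed the threshold over all probes.

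**Figure D4:**
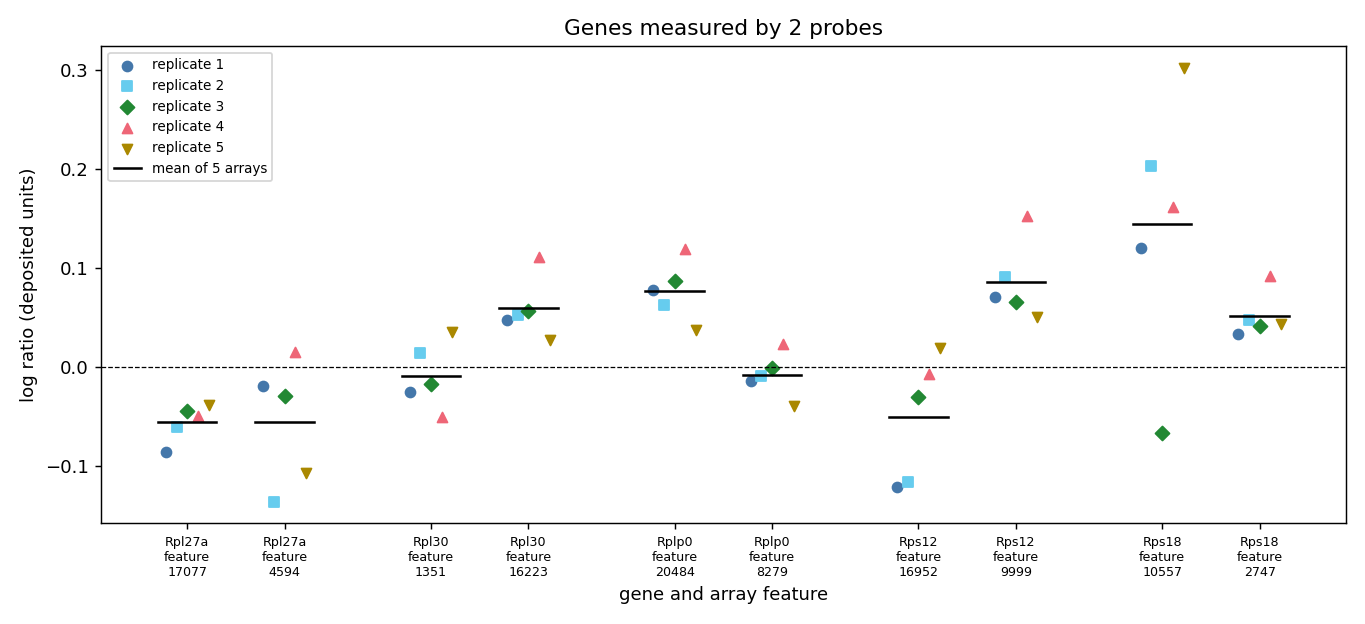
Log ratio (y axis, deposited units) on each array for both probes of the 5 genes measured by 2 probes (x axis, gene and feature number). Points are arrays and black lines are means. The means of the probes of Rpl30, Rplp0 and Rps12 lie on opposite sides of 0, while the points of both probes of Rpl27a lie mostly below it, and those of Rps18 mostly above it.

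Other gene groups of the pathway had medians nearer to 0. For comparison, 52.2% of all genes had a positive mean, 1.05% passed with a positive and 1.4% with a negative one. Of 14 measured TOP messages outside the set, which include elongation factors, 10 had a positive mean, the median was 0.0208, and 1 passed: Fau, which encodes the small subunit protein Rps30 fused to a ubiquitin-like protein, with 0.0525, 0.0509, 0.0536, 0.0902 and 0.0646 and a mean of 0.0624 ± 0.0165 (limma adjusted p = 0.0485). Of 30 initiation factor genes, 22 had a positive mean with a median of 0.0236, and 1 passed in each direction. These were Eif2b2, of the exchange factor that recharges the initiator complex, at 0.107 ± 0.0255 (limma adjusted p = 0.0344), and Eif3h, of the scaffold on the small subunit, at -0.0452 ± 0.0049 (limma adjusted p = 0.0496). The TOP group had array medians of 0.00582, 0.0091, 0.0112, 0.031 and -0.000834, and the initiation factors 0.00315, 0.00612, 0.0141, 0.0255 and 0.00426. Both groups were thus highest on replicate 4, as the ribosomal proteins were, with a median excess of replicate 4 over the other arrays' mean of 0.0317 and 0.0284. Without replicate 4 the medians of the gene means were 0.0185 and 0.0237, with 9 of 14 and 17 of 30 means positive.

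Mitochondrial ribosomal proteins, which build the separate ribosome of that organelle, had a median close to 0. Of 76 genes 34 had a positive and 41 a negative mean, the median was -0.00561, and none passed in limma. At an unadjusted p of 0.05 in limma 21 did, or 27.6%, near the 27.7% of all genes. They were positive on all arrays in 13 genes and negative on all in 13, or 17.1% each, against 13.8% and 13.2% of all genes. Ribosome biogenesis factors, which assemble the subunits in the nucleolus and beyond, had 22 of 39 means negative and a median of -0.0045, and the 3 that passed were negative. These were Nop56, a core protein of the particles that methylate ribosomal RNA, at -0.0777 ± 0.0108, Nmd3, the export adaptor of the large subunit, at -0.0684 ± 0.0132, and the nucleolar protein Nolc1 at -0.0863 ± 0.0262 (limma adjusted p = 0.0296, 0.0379 and 0.0468). Of 17 genes of the S6 kinases and the mTOR pathway, 7 had a positive mean, and 1 passed, Larp1, which binds the TOP tract, at -0.407 ± 0.0693 (limma adjusted p = 0.0142). With any 1 array left out Fau, Eif2b2, Eif3h, Nop56, Nmd3 and Nolc1 lost the call (limma adjusted p from 0.0664 for Nop56 to 0.152 for Eif3h), and Larp1 and Dsp kept it in 1 of 5 cases each. In these fits 0.0182% to 0.388% of all genes passed, against 2.45% with all arrays. With all arrays, 1.05% of all genes passed with a positive and 1.4% with a negative mean. No test of the difference between these groups was made.

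**Figure D5:**
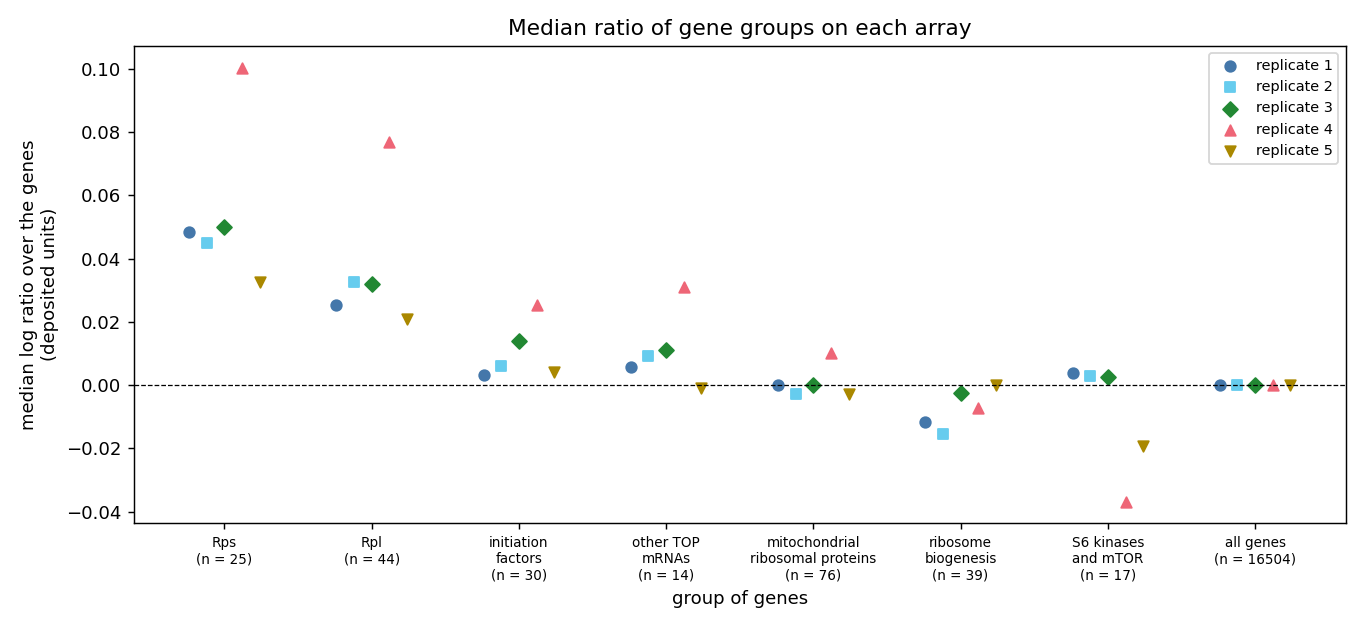
Median log ratio (y axis, deposited units) of each group of genes (x axis, with the number of genes measured) on each of the 5 arrays. Rps and Rpl medians are above 0 on all arrays and highest on replicate 4, and the mitochondrial ribosomal proteins and all genes lie near 0.

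The arrays' precision for these genes bears on the purpose the series states. The 95% confidence interval of a member's mean in limma reached 0.0353 log units to either side in the median gene, or 1.08-fold under the log10 reading, against 0.0598 or 1.15-fold over all genes. It was widest for Rpl37, whose interval ran from -0.00443 to 0.363, and narrowest for Rpl30, from 0.00616 to 0.045. The Rpl30 value averages disagreeing probes with SDs of 0.0338 and 0.0314, so its narrow interval is not the precision of either probe. The spread behind these intervals includes the shift of replicate 4, and the number of arrays limits it.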

How the data were processed

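For each of 20868 probes and 5 arrays the authors deposited 1 log ratio of the channels, centred on a median of 0 in each array and taken here as log10 from their form (both signs, a size under 2, many exact zeros), as neither the base nor the numerator is stated. Image quantification, background correction and dye normalization are not given in the sources used here. No column belongs to another sample (0 columns). Gene names came from the platform's annotation table, which is of mouse: 17786 probes had 1 symbol, 16 several and 3066 none. Probes of 1 symbol were averaged.

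Each gene's and each probe's mean ratio was tested against 0 in limma 3.58.1 under R 4.3.3 (lmFit with an intercept, eBayes), with Benjamini-Hochberg adjustment over all 16504 genes or 20868 probes and a threshold of 0.05. The fit was tested on simulated data with noise independent between genes, which lacks a shift shared by many genes such as that of replicate 4. Values are mean ± SD over n = 5 arrays in deposited units. Other steps used Python 3.11.15, pandas 2.3.3, scipy 1.17.1 and matplotlib 3.10.9. The members, lists and alternatives were chosen with earlier results of these data known. Genes named with values on every array were those that passed, the 5 highest and 5 lowest means, the 4 widest and 4 steadiest, those with several probes, an exact 0 or a negative mean, the paralogues with their parents, and the stalk proteins; in other lists, up to 4 genes that passed. Rps6, Rps13, Rps19, Rpl11 and Rpl13 were named besides. The alternatives were leaving out each array, scaling, quantile normalization, dropping probes with an exact 0, robust regression, array weights, robust eBayes, the median over probes, the standard subunits alone and a log2 reading.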

Additional observations from a re-analysis of the deposited data

Results flagged for a closer look

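Of the 69 genes, 17 (24.6%) had 1 array apart from the other 4, measured as the gap to the nearest array over the gene's whole range with a limit of 0.71, where 13% of all genes did and chance gives about 5%. In 15 of them the array was replicate 4 and its value the highest. The replicate 4 values were 0.0926 for Rpl12, 0.0441 for Rpl13, 0.077 for Rpl15, 0.109 for Rpl27, 0.127 for Rpl34, 0.138 for Rpl37a, 0.154 for Rpl38 and 0.191 for Rplp1. In the small subunit they were 0.124 for Rps13, 0.133 for Rps20, 0.107 for Rps24, 0.0769 for Rps25, 0.122 for Rps26, 0.145 for Rps28 and 0.0851 for Rps4x, whose other arrays were all listed at 0. In the remaining 2 genes replicate 5 was the low array, at -0.00887 for Rps19 against 0.0422 to 0.0485 elsewhere and at -0.0217 for Rps29 against 0.0925 to 0.135 elsewhere. The medians over the members were apart on replicate 4 as well, at 0.0851 for all 69 genes, 0.077 for Rpl and 0.100 for Rps, against 0.0248 to 0.0398, 0.0209 to 0.0327 and 0.0328 to 0.0501 on the other arrays.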

How the results depend on the processing

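The sign of the medians did not depend on the settings tried, and the number of calls did. The median ratio of all members was 0.031 to 0.0479 over left-out arrays, that of Rpl 0.0273 to 0.0453, that of Rps 0.0422 to 0.0584 and the Rps minus Rpl difference 0.0084 to 0.0166, and after scaling, quantile normalization and the removal of exact zeros all stayed positive. The count of genes with 1 sign was 43 to 52 over left-out arrays. A gene with 1 sign on every array keeps it when 1 is left out, so this count could not fall below 42. The 3 genes called became 15 after scaling, 16 without probes holding an exact 0, 20 with array weights and 42 with robust regression, where 4.45%, 8.38%, 7.22% and 19.8% of all genes were called. It was 0 after quantile normalization and with robust eBayes (44 genes in each at an unadjusted p of 0.05 in limma), and 0 with any 1 array left out (33 to 43 at an unadjusted p of 0.05). After quantile normalization 2.22% of all genes were called, near the 2.45% of the main fit. With robust eBayes the share was 1.04%, and with any 1 array left out it was 0.0182% to 0.388%. The 5 probes called became 16 after scaling, 19 without exact zeros, 0 after quantile normalization (45 at an unadjusted p of 0.05) and 0 with any 1 array left out (36 to 45). Rps23, Rpl41 and Rpl36 each passed in 5 of 12 alternatives, with adjusted p from 0.00621 to 0.14, from 0.00284 to 0.141 and from 0.0165 to 0.151. The cause was not tested. The median between-array SD ran from 0.0138 without replicate 4 to 0.0346 over left-out arrays, for Rpl from 0.0138 to 0.0343 and for Rps from 0.0138 to 0.0357. With array weights the Rpl14 mean was 0.00475. Its range over left-out arrays was -0.0242 to 0.000327, that of Rpl24 -0.0184 to 0.00702, that of Rpl39 -0.0514 to 0.00385 and that of Rpl39l -0.00753 to 0.025. Read as log2, the members' median is 1.03-fold in place of 1.10-fold. No paired analysis was possible because all arrays form 1 group. Signal over background could not be judged, as the deposited values are ratios alone.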
